A study of Homo sapiens with 6 samples.

Results

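The 7 genes described here are the receptor tyrosine kinases AXL, TYRO3, MERTK and MET and the ligands GAS6, PROS1 and HGF. They were measured in MDA-MB-231, an established line of human triple-negative breast cancer grown in DMEM with serum. Cells were given 50 µM TCI04, a code-named agent of unstated structure, or PBS (phosphate-buffered saline) for 48 h. Each group had 3 Affymetrix arrays of this 1 line. Whether replicates were grown separately is not stated, and p-values therefore reflect only the variation among these arrays, possibly technical. These 7 of the 19775 singly annotated genes had 19 probe sets, of 54675 on the array, taken as every non-control probe set whose only annotated symbol was one of the 7 (2 for AXL, 2 for TYRO3, 3 for MERTK, 2 for GAS6, 1 for PROS1, 4 for MET and 5 for HGF). A probe set is a group of short probes against 1 transcript region. Its brightness depends on its probes as well as on the amount of RNA, so signals of different probe sets are not compared as amounts.

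AXL, TYRO3 and MERTK form the TAM family of receptors. GAS6 and PROS1 (protein S) are vitamin K-dependent proteins that bind phosphatidylserine on dying cells and bridge it to TAM receptors, with GAS6 binding all of the family and PROS1 binding TYRO3 and MERTK. MET is the receptor for HGF, hepatocyte growth factor, which is made mostly by stromal cells and drives epithelial cells to scatter and move. AXL is known for high expression in mesenchymal breast cancer cells such as this line, and both AXL and MET are studied as routes of invasion and of resistance to kinase inhibitors.

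None of the 14 tested member probe sets passed the test for a difference between TCI04 and PBS. The brightest probe sets of AXL and MET differed little at the deposited scaling. Their 95% intervals ran from 1.07-fold lower to 1.14-fold higher for MET and from 1.07-fold lower to 1.12-fold higher for AXL. These reflect only the variation among arrays. Median centring, which raised all tested probe sets, put both estimates above these intervals. The intervals of the dimmer AXL probe set and of MET 213816_s_at reached 1.33-fold and 1.54-fold lower. Both GAS6 probe sets failed the test, at 0.885-fold and 0.815-fold of PBS. Every TCI04 array lay below every PBS array in both, as in 8.21% of all tested probe sets. This separation held after quantile normalization, where 5.69% of all tested probe sets separated on the lower side. It was lost when arrays were centred on their medians, where 2.37% did. HGF was dim in both groups, with 4 of its 5 probe sets below the testing threshold.

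The starts of 3 genes are shown because AXL and MET were far above the testing threshold in every array while 4 of 5 HGF probe sets were below it. Each window runs from 250 bases before to 50 after the annotated start (RefSeq, GRCh38.p14), 5′ to 3′ on the gene's strand. Capitals mark the GC box GGGCGG, searched on both strands, the binding motif of SP1-type factors. AXL lies at chr19:41218973-41219272 on the plus strand, MET at chr7:116671946-116672245 on the plus strand and HGF at chr7:81769998-81770297 on the minus strand.
AXL: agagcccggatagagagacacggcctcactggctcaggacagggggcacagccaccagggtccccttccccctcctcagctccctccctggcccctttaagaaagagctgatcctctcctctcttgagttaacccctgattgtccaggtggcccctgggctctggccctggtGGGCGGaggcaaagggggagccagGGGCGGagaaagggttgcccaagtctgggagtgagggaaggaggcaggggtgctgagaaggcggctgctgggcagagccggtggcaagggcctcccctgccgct
MET: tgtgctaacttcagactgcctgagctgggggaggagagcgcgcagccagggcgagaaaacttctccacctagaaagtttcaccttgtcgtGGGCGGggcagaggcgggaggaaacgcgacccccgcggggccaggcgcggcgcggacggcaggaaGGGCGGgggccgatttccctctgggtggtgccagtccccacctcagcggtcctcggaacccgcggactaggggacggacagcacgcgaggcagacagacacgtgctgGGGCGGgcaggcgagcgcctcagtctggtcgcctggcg
HGF: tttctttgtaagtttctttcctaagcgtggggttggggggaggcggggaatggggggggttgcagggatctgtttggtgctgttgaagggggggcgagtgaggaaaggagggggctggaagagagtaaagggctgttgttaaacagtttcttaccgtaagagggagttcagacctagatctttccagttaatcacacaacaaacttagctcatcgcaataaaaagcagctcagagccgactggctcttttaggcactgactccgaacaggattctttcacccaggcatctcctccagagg
The AXL window held 2 GC boxes, the MET window 3 and the HGF window 0. Over the members, 6 of 9 windows held at least 1, belonging to 6 of the 7 genes, against 45% of all 35116 windows of the same length. HGF was the gene without one, and the second windows of AXL and TYRO3 also had none. The AP-1 pattern TGANTCA, with N any base, was searched because FOS encodes a subunit of AP-1. It was found in 1 of the 9 windows, that of TYRO3, as TGAATCA, against 7.71% of all windows. The spelling of these motifs leaves no way for them to share letters. These matches describe letters in a window and say nothing of binding.

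All arrays had been scaled to the same trimmed mean signal, 500.1. The median signal was 58.9 to 59.8 in the TCI04 arrays and 64.0 to 74.3 in the PBS arrays, so dim probe sets sat lower with TCI04. Across the 32746 tested probe sets the median log2 fold change was -0.03, with -0.17 in the dimmest of 5 equal bins of mean signal and 0.02 in the brightest. TCI04 replicate 3 had a 3′ to 5′ signal ratio of 3.33 for the ACTB controls, against 1.70 and 1.71 in the other TCI04 arrays and 1.64 to 1.72 in the PBS arrays. For the GAPDH controls its ratio departed less, at 1.21 against 0.97 to 1.08 in the other arrays. The mesenchymal marker VIM was at 27695 ± 1284 with TCI04 and 30225 ± 1966 with PBS (SD, n = 3 each), and all 4 mesenchymal markers were above the testing threshold. Their log2 fold changes were -0.13 for VIM, 0.06 for CD44, -0.27 for FN1 and 0.07 for ZEB1, and none passed the test. The groups of FN1 did not overlap, as in 8.21% of all tested probe sets on the lower side. Of 7 luminal epithelial markers 5 were above it (KRT8, GATA3, ERBB2, EPCAM and, barely, ESR1), while PGR and CDH1 were below. KRT8, the brightest of these probe sets, had 2227, 2313 and 996 with TCI04 and 2199, 2741 and 2582 with PBS. RNA came from bulk cultures of this cell line, so signal of another cell type's marker does not show that such cells were present. In bulk RNA, fewer cells of a kind and less RNA per cell cannot be told apart.

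AXL, the TAM receptor most tied to invasion in this kind of cell, was measured by 2 probe sets. Probe set 202686_s_at had signals of 18227, 19842 and 19341 in the TCI04 arrays and 17608, 19127 and 19434 in the PBS arrays. The values of both groups interleaved. The log2 fold change was 0.03 ± 0.06 (SE), and its 95% interval ran from -0.10 to 0.16 (limma, adjusted p = 0.905). The dimmer 202685_s_at had 882, 941 and 766 with TCI04 and 1034, 1001 and 937 with PBS. Here TCI04 replicate 2 just exceeded PBS replicate 3, and the other values separated. The log2 fold change was -0.20 ± 0.10 (SE), with an interval from -0.42 to 0.02 (limma, adjusted p = 0.698). It was -0.12 without TCI04 replicate 3 and -0.04 with median centring. The 2 probe sets of AXL thus gave estimates of opposite sign, neither past the threshold, and averaging them gave -0.08.

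MET was measured by 4 probe sets. The brightest, 203510_at, had signals of 5732, 6033 and 6247 in TCI04 arrays and 5545, 6226 and 5714 in PBS arrays. These ranges nearly coincided, and the log2 fold change was 0.04 with an interval from -0.10 to 0.19 (limma, adjusted p = 0.882). Probe set 211599_x_at, whose suffix marks probes open to cross-hybridization, had 652, 624 and 574 with TCI04 and 753, 717 and 655 with PBS. All TCI04 arrays lay below all PBS arrays, with TCI04 replicate 1 and PBS replicate 3 almost touching, and the log2 fold change was -0.20 with an interval from -0.42 to 0.02 (limma, adjusted p = 0.698). Probe set 213816_s_at had 190, 241 and 197 with TCI04 and 260, 281 and 229 with PBS, a log2 fold change of -0.28 (interval -0.62 to 0.05) with TCI04 replicate 2 inside the PBS range. Probe set 213807_x_at had 592, 438 and 640 with TCI04 and 537, 621 and 574 with PBS, and its log2 fold change of -0.07 turned to 0.09 without TCI04 replicate 2. As for AXL, the mean over the probe sets of MET had the other sign from the brightest, at -0.13.

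**Figure D1:**
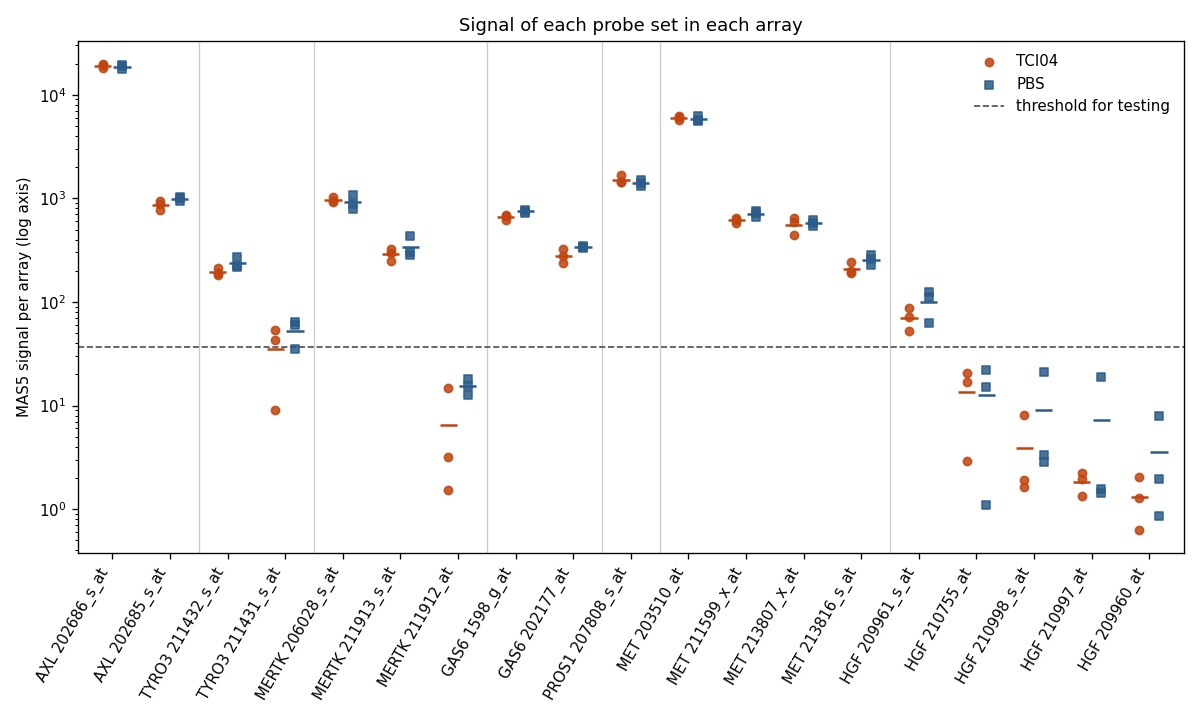
MAS5 signal (log axis) of each of the 19 probe sets in each array, with TCI04 arrays as circles and PBS arrays as squares, 3 each, short lines for group means and a dashed line at the testing threshold of 37.0. The brightest AXL and MET probe sets overlap between groups, and 4 HGF probe sets and 1 MERTK probe set lie below the threshold.

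TYRO3, the TAM receptor best known from the nervous system, was dimmer. Its probe set 211432_s_at had 192, 213 and 180 in the TCI04 arrays and 268, 215 and 224 in the PBS arrays. The groups did not overlap, although TCI04 replicate 2 and PBS replicate 2 were nearly equal, and the log2 fold change was -0.26 with an interval from -0.59 to 0.08 (limma, adjusted p = 0.714). The other, 211431_s_at, was close to the threshold, at 42.6, 54.1 and 9.02 with TCI04 and 59.9, 35.2 and 63.7 with PBS. Its log2 fold change of -0.60 had an interval from -1.66 to 0.45, and it was -0.08 without TCI04 replicate 3, the array with the high ACTB ratio.

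MERTK, the TAM receptor that macrophages use to clear dying cells, had 2 tested probe sets with estimates of opposite sign. Probe set 206028_s_at had 936, 913 and 1025 with TCI04 and 885, 789 and 1072 with PBS, a log2 fold change of 0.07 (interval -0.18 to 0.33, limma, adjusted p = 0.887). The TCI04 values lay inside the PBS range. Probe set 211913_s_at had 246, 298 and 324 with TCI04 and 428, 306 and 281 with PBS, a log2 fold change of -0.20, or -0.03 without PBS replicate 1, the highest of the 6 arrays. The third, 211912_at, was below the threshold and not tested, at 14.6, 3.18 and 1.53 with TCI04 and 15.5, 12.5 and 17.9 with PBS. Of the macrophage markers PTPRC, CD14, CD163 and CSF1R, 1 of 4, CSF1R, was above the threshold. Their summed signal was 136 to 195 with TCI04 and 88.0 to 118 with PBS. CSF1R averaged 89.0 with TCI04 and 58.9 with PBS, and its groups overlapped (limma, adjusted p = 0.702). Of the untested ones, CD14 averaged 22.1 and 8.78, and CD163 30.6 and 8.33, raised by TCI04 replicate 2 at 68.4. The groups of CD14 did not overlap, as in 5.34% of tested probe sets on the higher side. That share was not computed for probe sets below the threshold. PTPRC was lower with TCI04, at 16.0 and 22.5. The part of these markers in the MERTK values was not tested.

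GAS6, the ligand of AXL, had 2 probe sets. Probe set 1598_g_at had 686, 681 and 616 with TCI04 and 768, 723 and 751 with PBS. Probe set 202177_at had 276, 323 and 235 with TCI04 and 348, 335 and 340 with PBS. The groups did not overlap in either, as in 8.21% of all tested probe sets on the lower side, with TCI04 replicate 3 the lowest in both and TCI04 replicate 2 near the PBS range in the second. The log2 fold changes were -0.18 (interval -0.38 to 0.02) and -0.30 (interval -0.60 to 0.01), each failing the correction (limma, adjusted p = 0.702 and 0.698). Without TCI04 replicate 3 they were -0.13 and -0.19. After quantile normalization they were -0.16 and -0.24, and the groups overlapped in neither, as in 5.69% of all tested probe sets on the lower side. With arrays centred on their medians they were -0.02 and -0.14, and the groups overlapped in both. Both probe sets read the same gene, so they are not independent evidence. GAS6-AS1, an antisense gene with 2 probe sets, was below the threshold in both, with mean signals of 10.2 and 33.5 with TCI04 and 9.12 and 37.2 with PBS.

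PROS1, known mainly as an anticoagulant cofactor, had 1 probe set, 207808_s_at. Its signals were 1437, 1432 and 1689 in TCI04 arrays and 1315, 1397 and 1512 in PBS arrays. The groups overlapped and TCI04 replicate 3 was the highest. The log2 fold change was 0.11 with an interval from -0.09 to 0.31 (limma, adjusted p = 0.790), and 0.03 without TCI04 replicate 3.

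HGF, the ligand of MET, had 1 tested probe set of 5. Probe set 209961_s_at had 52.4, 71.3 and 86.9 with TCI04 and 110, 62.8 and 126 with PBS. PBS replicate 2 lay among the TCI04 values, and the log2 fold change was -0.42 with an interval from -1.08 to 0.24 (limma, adjusted p = 0.747). Single arrays moved it, to -0.69 without PBS replicate 2, -0.24 without PBS replicate 3 and -0.25 without TCI04 replicate 1, and median centring gave -0.26. The probe sets 210755_at, 210998_s_at, 210997_at and 209960_at had means of 13.5, 3.87, 1.83 and 1.32 with TCI04 and 12.7, 9.08, 7.27 and 3.55 with PBS. In the last 3 the PBS mean was raised by PBS replicate 3, at 21.1, 18.8 and 7.84. No fold change is given for these dim probe sets. MAS5 detection calls were not used here, so whether HGF was expressed was not decided. The fibroblast markers COL1A1, COL1A2, COL3A1, DCN and LUM, from the cell type that usually makes HGF, had 3 of 5 above the threshold and summed signals of 499 to 686 with TCI04 and 592 to 603 with PBS. Most of that sum was COL1A1, at 431 ± 82.1 with TCI04 and 439 ± 22.8 with PBS (SD, n = 3 each). COL1A2, close to the threshold and picked out by its values, had 6.52, 31.9 and 4.74 with TCI04 and 56.3, 80.2 and 48.2 with PBS. Its groups did not overlap, as in 8.21% of all tested probe sets on the lower side. Its log2 fold change of -1.65 failed the correction (limma, adjusted p = 0.698). The part of these markers in the HGF values was not tested.

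**Figure D2:**
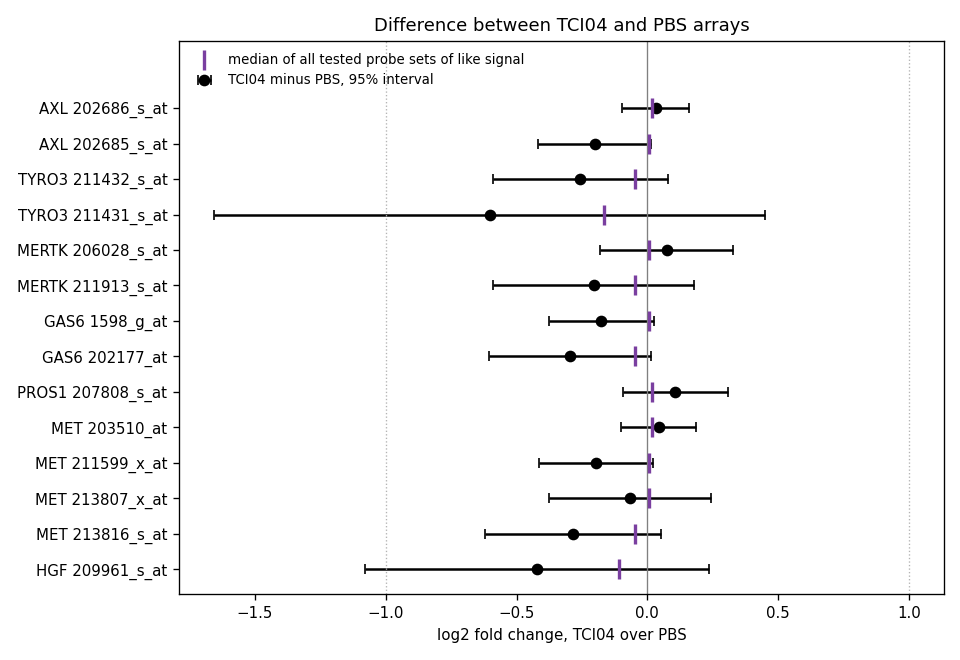
Log2 fold change of TCI04 over PBS with its 95% interval for the 14 tested probe sets, and a vertical mark at the median of all tested probe sets in the same of the 5 bins of mean signal. Every interval includes 0, and 2 of them, for dim TYRO3 and HGF probe sets, reach below the dotted line at -1, a 2-fold fall.

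Of the 14 tested probe sets, 0 passed an adjusted p of 0.05, where 1 of 32746 did (0.00305%), the probe set of the immediate-early gene FOS, at a log2 fold change of -1.15. At an unadjusted p under 0.05 there were also 0 members, lower or higher, against 4.9% of all tested probe sets on the lower and 2.21% on the higher side. In 4 of 14 (28.6%) every TCI04 array lay below every PBS array, against 8.21% of all tested probe sets, and in 0 of 14 above, against 5.34%. These 4 were both GAS6 probe sets, TYRO3 211432_s_at and MET 211599_x_at. The count depended on the scaling of the arrays. It was 5 lower and 0 higher after quantile normalization, where 5.69% and 7.2% of all tested probe sets separated. With arrays centred on their medians it was 0 lower and 2 higher, AXL 202686_s_at and PROS1, where 2.37% and 22.6% did. Centring moved the median of all tested probe sets to 0.13, against which the 0.19 of AXL 202686_s_at, the 0.20 of MET 203510_at and the 0.27 of PROS1 under that setting are to be read.

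The members' direction is given here beside their brightness. Tested probe sets were split by mean signal into 5 equal bins. All 3 members in the brightest bin (AXL 202686_s_at, MET 203510_at and PROS1) had a higher mean with TCI04, at 0.03 to 0.11, where the median of the bin was 0.02. In the next bin, 4 of 5 members had a lower mean, where the median was 0.01. The 4 in the middle bin, 1 each for TYRO3, MERTK, GAS6 and MET, gave -0.30 to -0.20, where the median was -0.05. In the dimmest bin TYRO3 211431_s_at gave -0.60, where the median was -0.17. In the bin above it HGF 209961_s_at gave -0.42, where the median was -0.11. Below the brightest bin, every member but MERTK 206028_s_at thus lay below the median of its bin. Why was not tested. The mean was lower with TCI04 for 10 of 14 members (71.4%), against 56.2% of all tested probe sets. The median log2 fold change was -0.20 over the members and -0.03 over all. The members were chosen by name, and several read the same gene, so these counts describe them and are no test. The whole 95% interval lay within 2-fold for 12 of 14 members and for 81.4% of all tested probe sets, and within 1.5-fold for 8 of 14 and 55.0%.

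**Figure D3:**
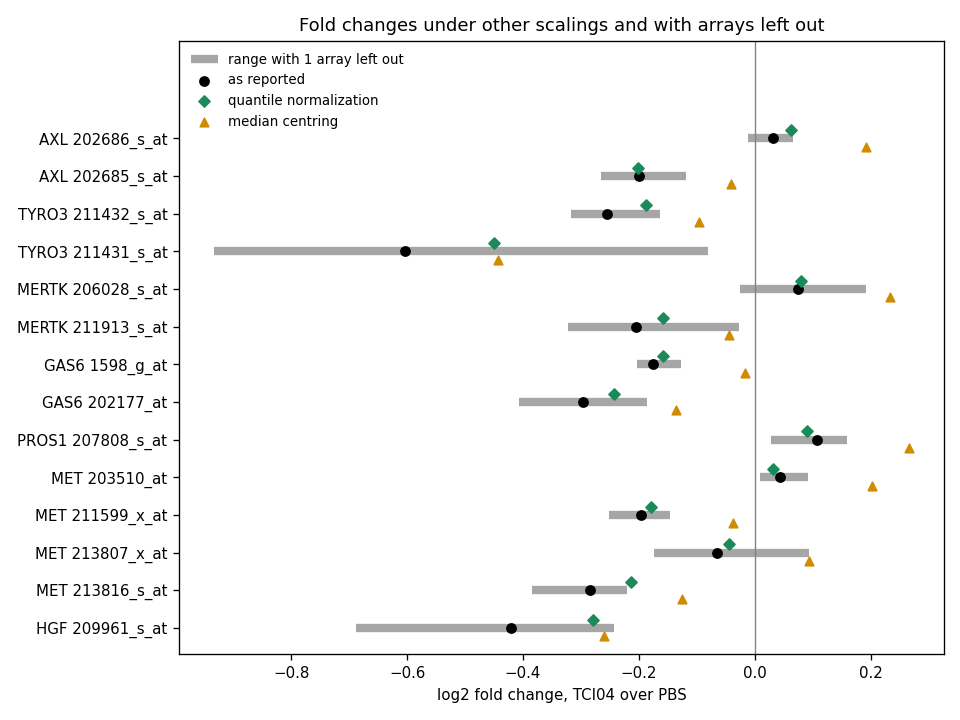
Log2 fold change of the 14 tested probe sets as reported (circles), after quantile normalization (diamonds) and with median centring (triangles), and the range with 1 array left out (grey bars). Median centring moves all 14 up.

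Genes that act with these receptors were followed from a list of 42 in 7 roles, each gene by its brightest tested probe set. Of these, 35 were above the threshold and 0 passed the adjusted threshold (smallest adjusted p = 0.698, limma). Their median log2 fold change was 0.01, against 0.00 over all 13704 genes, and 18 had a higher and 17 a lower mean. At an unadjusted p under 0.05, 2 were lower and 1 was higher, against 4.23% and 2.89% of all genes.

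These 3 were named after their values were seen. SPINT1, an inhibitor of the proteases that activate HGF, had 132, 106 and 78.0 with TCI04 and 184, 226 and 175 with PBS. Its groups did not overlap, as in 8.21% of all tested probe sets on the lower side. The log2 fold change was -0.85 with an interval from -1.32 to -0.37 (limma, adjusted p = 0.698). Its other probe set was below the threshold. The kinase SRC had 196, 224 and 173 with TCI04 and 230, 331 and 250 with PBS, a log2 fold change of -0.42, and -0.19 in its other tested probe set. CBL, which tags active MET and AXL for degradation, had 1498, 1442 and 1729 with TCI04 and 1336, 1398 and 1335 with PBS, a log2 fold change of 0.19. Its probe set 229010_at passed the same unadjusted threshold in the other direction, with groups that did not overlap and a log2 fold change of -0.58. The rest of its probe sets gave -0.31 in 243475_at, -0.16 in 225234_at and 0.00 in 206607_at.

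By role, the genes of HGF activation had 3 of 6 means higher, with the protease urokinase PLAU at 0.02 and the inhibitor SPINT2 at 0.04. The lowest estimate of the role and of all partner genes, picked by its value, was that of the HGF-activating protease ST14 (matriptase), at -1.05 with an interval from -2.40 to 0.30. Its signals were dim and overlapped, averaging 19.8 ± 11.9 with TCI04 and 61.9 ± 44.9 with PBS (SD, n = 3 each). In receptor shedding 2 of 3 were higher, with the sheddase ADAM10 at 0.06 and the metalloproteinase inhibitor TIMP1 at -0.09. For vitamin K carboxylation, which GAS6 and PROS1 need, the carboxylase GGCX gave -0.12 and the reductase VKORC1 gave 0.02. None of these values passed the test.

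Among adaptors and effectors 5 of 11 were higher, with the phosphatase PTPN11 at 0.01 and the adaptor SHC1 at 0.03. Of the negative regulators 5 of 8 were higher, with the CBL-binding adaptor SH3KBP1 at -0.03 and SOCS3 at 0.13. The related receptor MST1R was at -0.07 and the MET co-receptor CD44 at 0.06, and of the other TAM ligands LGALS3 was at -0.03 and TUB at 0.06. All of these log2 fold changes failed the test, and for the named genes other than TUB the interval lay within 1.5-fold.

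**Figure D4:**
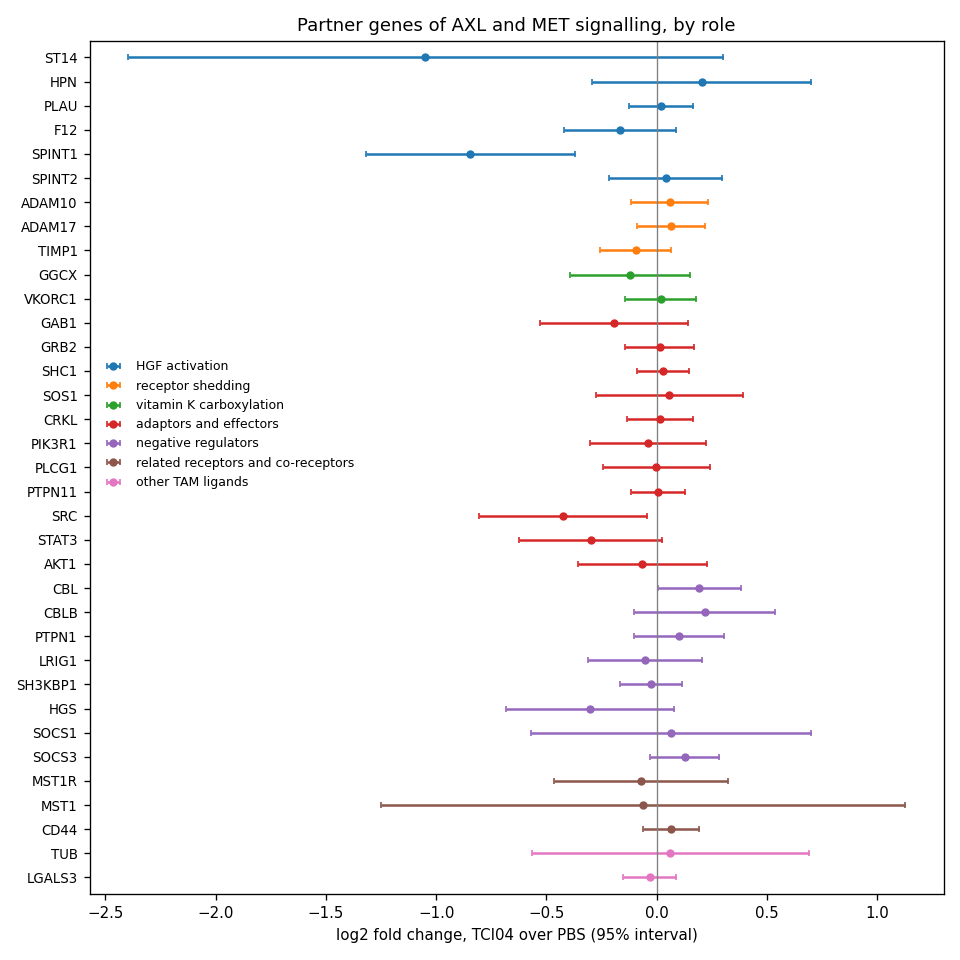
Log2 fold change of TCI04 over PBS with its 95% interval for the 35 partner genes above the threshold, coloured by role. Most points lie within 0.3 of 0, and SPINT1, at -0.85, is the one furthest from 0 among those whose interval leaves out 0.

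The probe sets most like AXL 202686_s_at were looked for by the root mean square difference of log2 signals, each centred on its own mean, over the 6 arrays. The nearest were those of ARMCX6, NUAK1 and DHX15, at 0.014 to 0.015. For MET 203510_at the nearest were CNOT9, EML4 and GIT2, at 0.015 to 0.016. AXL's own spread on this scale was 0.06 and that of MET 0.07, and 1721 and 1939 tested probe sets came nearer than that, so these names describe flat profiles.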

How the data were processed

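The authors deposited a linear intensity for each probe set on each array. Per the submitters' processing notes these came from MAS5, which summarises each probe set within its array; the version and detection calls are not given in the sources used here. In the platform annotation 41097 probe sets had 1 symbol, 1801 had several and 11777 had none. The Entrez IDs of all 7 members matched RefSeq under the same symbol.

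Signals were analysed as log2(signal + 10.96), with an offset equal to the table's 20th percentile, so fold changes of dim probe sets are understated. The 62 control probe sets and those with a mean below the 40th percentile (37.0) were left out, which left 32746. limma 3.58.1 (R 4.3.3) estimated TCI04 minus PBS (eBayes with a variance trend, two-sided), with Benjamini-Hochberg adjustment over all tested probe sets and a threshold of 0.05. Intervals of 95% used 10.5 degrees of freedom. The number of arrays limits the precision. The steps were tested on simulated data. Members and gene lists were chosen with earlier results of these data known. Every member probe set is named, as are FOS, the 2 brightest partner genes per role and the 3 probe sets nearest to AXL and to MET. The text says where a gene outside this rule was picked by its values.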

Additional observations from a re-analysis of the deposited data

How the results depend on the processing

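No member probe set and no partner gene passed the adjusted threshold in any of the 15 alternatives, and 11 of 14 tested member probe sets kept their sign in every alternative that tested them. TYRO3 211431_s_at and HGF 209961_s_at were not tested under the filter at the 60th percentile. The smallest adjusted p of a member in any was 0.315 (PROS1, median centring). The count of all probe sets past the threshold was 1 as reported, 0 with median centring and in eBayes without trend, and 0 to 1 with 1 array removed, with 1 without TCI04 replicate 3 and 0 without any one of the other 5. Members at an unadjusted p under 0.05 numbered 1 with median centring (PROS1) and 0 to 3 with single arrays left out. The 3 came without TCI04 replicate 2 (GAS6 202177_at, AXL 202685_s_at and MET 213816_s_at), HGF 209961_s_at without PBS replicate 2 and MET 211599_x_at without PBS replicate 3. Of all 32746 tested probe sets, 1934 were lower and 808 higher at that p without TCI04 replicate 2. These counts were 1328 and 583 without PBS replicate 2, and 1396 and 524 without PBS replicate 3. Members whose groups did not overlap numbered 2 with median centring, both higher, as in 22.6% of all tested probe sets. They numbered 4 to 8 with single arrays left out, the 7 and 8 without PBS replicates 2 and 3. Fewer arrays separate more easily. The share of all tested probe sets was not computed with single arrays left out, so those counts cannot be read as an excess.

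Signs turned as follows. With 1 array left out AXL 202686_s_at ranged from -0.012 (without PBS replicate 1) to 0.067, MERTK 206028_s_at from -0.026 (without PBS replicate 2) to 0.193 and MET 213807_x_at from -0.174 to 0.094 (without TCI04 replicate 2). MET 213807_x_at was at 0.094 with median centring. Averaging each gene's probe sets gave -0.084 for AXL, -0.065 for MERTK and -0.126 for MET. Median centring adds the same amount to all log2 fold changes, and the averages take in each gene's lower probe sets. Why signs turned with single arrays left out was not tested. At an unadjusted p under 0.05, 1604 tested probe sets were lower and 723 higher, against 1050 and 990 after quantile normalization and 427 and 4574 with median centring. With the replicate number as a block (a replicate block) 1 probe set and 0 members passed, and no member's call changed. The numbers were not taken as pairs because the labels do not say that they mark a shared culture or day. Deviations from group means correlated at 0.00686 to 0.0678 between same-numbered arrays and at -0.0639 to 0.00668 between the others. Every same-numbered value was thus above all the others, by little at the closest. Signals near or below the threshold limit what can be read from TYRO3 211431_s_at and HGF. Possible cross-hybridization, marked by the suffix, limits what can be read from MET 211599_x_at and 213807_x_at.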
